A study of Mus musculus with 3 samples.

Results

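Runs of neighbouring 2 kb windows that carried both H3K36me3 and H3K27me3 were described in fully grown germinal vesicle (GV) oocytes of the mouse. A window was a member when the mean RPKM of the 3 H3K36me3 replicates was above 1, when the category table of the study named H3K27me3 for it and did not name H3K4me3, and when it lay in a run of at least 3 directly adjacent windows of this kind on an autosome. This rule gave 1676 runs with 7895 windows, which cover 15.79 Mb. They are 0.705% of the 1120034 valid windows on the 19 autosomes and 2.19% of the 360469 autosomal windows called for H3K36me3. The H3K36me3 values and the category calls chose the members, so the levels of the runs are given as a description. The H3K36me3 call of the category table and a mean above 1 gave the same answer in all 1186323 valid windows of the series (0 differences).

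All 3 libraries belonged to a single group: wildtype GV oocytes of strain C57BL6/Babr, 25 days old, in pools of about 280 oocytes each, profiled by native ChIP-seq for H3K36me3 without a treatment. For replicate 2 a smaller amount of antibody was used. Values named RPKM by the authors were whole multiples of the value of 1 read, and the reads recovered from them in valid windows numbered 7888140, 2692510 and 3166564 in replicates 1, 2 and 3. A member window held a median of 15, 5 and 7 reads, so a single window is known coarsely and a run of many windows much better. H3K27me3 and H3K4me3 were known only as calls made on earlier libraries of the same laboratory, without a level or replicates. Whether both marks lay on the same chromosome copy or in the same oocyte cannot be told apart in pools. As a check of the labelled cell type, the genes of a list of 15 oocyte genes had a mean H3K36me3 level of 1.93 ± 0.18 RPKM (SD, n = 3), and 14 of them were above 1. A list of 10 granulosa cell genes, the somatic cells that surround the oocyte, had 0.954 ± 0.071 RPKM with 4 genes above 1. These were Hsd3b1, Nr5a1, Kitl and Inhba, and all autosomal windows together had 0.91 RPKM, so the granulosa list was not below the rest of the genome. In single replicates the granulosa cell genes ranged from 0.387 to 1.90, from 0 to 2.08 and from 0 to 2.03 RPKM. No gene of either list held a run.

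H3K36me3 is laid down behind elongating RNA polymerase, over the bodies of transcribed genes, and in oocytes it marks the regions where DNA methylation is gained during growth. H3K27me3 is the product of Polycomb repressive complex 2 and is found over silent genes and, in oocytes, over wide stretches of untranscribed sequence. PRC2 works poorly on histones that already carry H3K36me3, and in many cell types the marks largely exclude each other along a chromosome.

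As examples, 300 bases at the centre of the highest window were read from GRCm38 (forward strand) for the 3 longest and 3 highest runs. The marks were called per 2 kb window, so these bases are not shown to carry either mark themselves. CpG dinucleotides, the sites of DNA methylation, are in capitals.
Efcab6 run, chr15:83952851-83953150: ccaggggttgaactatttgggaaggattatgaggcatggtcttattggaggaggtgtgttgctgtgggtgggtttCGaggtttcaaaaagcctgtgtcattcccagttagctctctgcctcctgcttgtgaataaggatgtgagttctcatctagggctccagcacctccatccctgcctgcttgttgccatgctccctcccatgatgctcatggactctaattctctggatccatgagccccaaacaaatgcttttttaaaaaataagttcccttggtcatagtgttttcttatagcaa
Prkcb run, chr7:122590851-122591150: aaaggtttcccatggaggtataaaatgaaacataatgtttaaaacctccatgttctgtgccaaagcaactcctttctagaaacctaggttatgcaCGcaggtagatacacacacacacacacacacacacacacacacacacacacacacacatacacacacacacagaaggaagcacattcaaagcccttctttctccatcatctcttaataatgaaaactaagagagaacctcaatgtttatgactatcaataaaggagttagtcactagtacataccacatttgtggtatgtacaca
Cdh23 run, chr10:60388851-60389150: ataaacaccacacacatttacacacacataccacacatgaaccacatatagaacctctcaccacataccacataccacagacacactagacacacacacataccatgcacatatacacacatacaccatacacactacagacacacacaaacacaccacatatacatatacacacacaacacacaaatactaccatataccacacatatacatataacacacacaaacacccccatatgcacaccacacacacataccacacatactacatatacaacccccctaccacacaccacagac
run between Matn1 and Ptpru, chr4:131604851-131605150: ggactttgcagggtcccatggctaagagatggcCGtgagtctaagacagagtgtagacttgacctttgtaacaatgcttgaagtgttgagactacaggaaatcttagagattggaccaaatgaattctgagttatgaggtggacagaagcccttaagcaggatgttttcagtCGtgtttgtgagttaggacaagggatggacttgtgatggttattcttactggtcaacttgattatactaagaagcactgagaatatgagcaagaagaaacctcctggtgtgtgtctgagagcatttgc
Lrch1 run, chr14:74804851-74805150: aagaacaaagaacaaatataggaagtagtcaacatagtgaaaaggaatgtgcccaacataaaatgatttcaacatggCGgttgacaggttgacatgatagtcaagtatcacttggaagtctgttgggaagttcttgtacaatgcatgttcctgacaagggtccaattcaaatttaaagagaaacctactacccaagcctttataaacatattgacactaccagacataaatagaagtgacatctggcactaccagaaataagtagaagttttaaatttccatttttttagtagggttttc
run between Gm6569 and Adgrb1, chr15:74010851-74011150: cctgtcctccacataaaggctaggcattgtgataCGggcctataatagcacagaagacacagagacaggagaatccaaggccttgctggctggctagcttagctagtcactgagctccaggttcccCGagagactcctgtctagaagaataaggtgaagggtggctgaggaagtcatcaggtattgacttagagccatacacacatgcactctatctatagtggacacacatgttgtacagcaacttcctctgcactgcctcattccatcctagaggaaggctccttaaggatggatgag
These stretches hold 1, 1, 0, 2, 1 and 2 CpGs, so none resembles a CpG island. In the genome file, 92% of the bases of the Cdh23 stretch were masked as repeats, and it consists largely of CA-rich repeat sequence. Of the whole 2 kb window around it, 32.45% was masked. Of the other stretches, between 6.67% (between Matn1 and Ptpru) and 50.3% (Efcab6) was masked. The stretches from Efcab6, Cdh23 and Lrch1 lay in introns by the annotation, with no exon in them, and the one from Prkcb touched 1 annotated exon. The other 2 lay outside annotated genes. The 2 kb windows around them had 5.43 ± 1.89 (Efcab6), 3.52 ± 1.35 (Prkcb), 7.56 ± 1.37 (Cdh23) and 7.38 ± 2.39 RPKM (Lrch1), and 8.82 ± 3.79 and 8.11 ± 3.02 RPKM in the windows outside genes (SD, n = 3).

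Most runs were short. Of the 1676 runs, 737 had 3 windows, 352 had 4 and 212 had 5, and the median run had 4 windows. The 93 runs of at least 10 windows held 1237 windows, 15.7% of all members, and 11 runs reached 20 windows or more. Stretches of 2 windows (2104) and single windows (10415) with the same marks were left out by the rule, so the runs hold 35.1% of the 22518 autosomal windows with both marks. Another run lay within 20 kb of 810 runs (48.3%). For 287 runs it was 2 kb away, so that 1 window that did not meet the rule separated them.

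Member windows had a mean H3K36me3 level of 2.21, 2.21 and 2.70 RPKM in replicates 1, 2 and 3 (2.37 ± 0.28, SD, n = 3). Replicate 3 was the highest, and it gave the highest value in 994 runs (59.3%), against 50.4% of the runs that carried H3K36me3 alone. All autosomal windows together had 0.91 RPKM in each replicate. Over runs, the mean level had a median of 2.12 RPKM, a 5th percentile of 1.31 and a 95th percentile of 3.65, and it ranged from 1.03 to 6.75. The replicate values of a run differed by a median SD of 0.486 RPKM, which is 22.8% of its mean. In 1457 runs (86.9%) the mean was above 1 in each replicate.

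Single windows were less stable. Of the member windows, 67.8% were above 1 in each replicate, 28.4% in 2 of them and 3.85% in 1. The share above 1 in each replicate over all autosomal H3K36me3 windows was 62.5%. A value above 1 took 8 reads in replicate 1 and 3 reads in replicates 2 and 3. Every window was above 1 in each replicate in 427 runs (25.5%, 95% Wilson interval 23.4 to 27.6%, for counting error only). Runs with H3K36me3 alone of the same lengths reached 17.98%. At the edge of the rule, the 3 members with the lowest mean had 1.0027, 1.0027 and 1.0034 RPKM. The 3 highest windows left out beside a run, with H3K27me3 and no H3K4me3, had 0.9998, 0.9998 and 0.9951 RPKM. The means on both sides of the threshold thus differed by less than the value of 1 read. That value was 0.136, 0.396 and 0.338 RPKM in replicates 1, 2 and 3. Windows with nearly equal means can therefore hold unequal numbers of reads.

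The longest runs lay in genes of several kinds. The run in Efcab6, which encodes an EF-hand calcium-binding protein, and the run in Prkcb, which encodes protein kinase C beta, each spanned 34 windows. The Efcab6 run (chr15:83932001-84000000) had 2.24, 2.23 and 2.90 RPKM in replicates 1, 2 and 3 from 1042 reads, and windows with H3K36me3 alone adjoined it on both sides. The Prkcb run (chr7:122544001-122612000) had 1.85, 2.08 and 2.49 RPKM from 891 reads. It was bordered by H3K27me3 alone on the side of the gene start and by H3K36me3 alone on the other side. Both runs were close to the average of all members, and they had 26 and 23 of 34 windows above 1 in each replicate.

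Cdh23 encodes cadherin 23, a protein of the tip links of hair cells in the inner ear, and it held 2 of the 5 longest runs. The run of 29 windows (chr10:60360001-60418000) had 4.53, 4.58 and 4.54 RPKM, and the run of 25 windows (chr10:60428001-60478000) had 3.77, 3.90 and 3.94 RPKM. The replicates differed by 0.0266 and 0.0887 RPKM (SD) around means of 4.55 and 3.87. All windows of both were above 1 in each replicate. They lay in a single H3K36me3 domain of 268 kb, while the H3K27me3 domains were exactly as long as the runs. The longer run overlaps Vsir and Gm17455 as well, and 15.5% of it was exonic, against 1.85% of the shorter one.

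The run of 25 windows at Rtl1, Meg3 and Rian (chr12:109562001-109612000), genes of an imprinted cluster, had 4.35, 5.06 and 5.31 RPKM. It was the only run among both the 12 longest and the 12 highest. Rtl1, a retrotransposon-derived gene expressed from the paternal copy, lay in it with all 5 of its windows, at 4.82 ± 0.75 RPKM. Meg3, a long non-coding RNA expressed from the maternal copy, had 8 of 16 windows in runs, at 4.43 ± 0.61 RPKM.

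The other long runs had levels between 1.86 and 4.30 RPKM. A run of 23 windows in Rps6ka2, which encodes a ribosomal S6 kinase, had 3.70, 3.53 and 4.18 RPKM. Loxhd1, another gene of hair cells, held a run of 22 windows with 3.43, 5.06 and 4.41 RPKM, where the replicates differed more than in Cdh23. Runs of 21 windows in Chst11, which encodes a chondroitin sulfotransferase, and of 20 windows in Vat1l had 3.06 ± 0.15 and 3.05 ± 0.29 RPKM. Ak8, which encodes an adenylate kinase, held a run of 18 windows with 2.76, 3.10 and 3.23 RPKM, and windows with all 3 marks adjoined it on both sides. The 2 remaining long runs lay outside protein-coding genes. One of 21 windows (chr4:131526001-131568000), 200 kb from Ptpru, had 3.16, 3.28 and 3.88 RPKM. The other of 20 windows (chr1:73248001-73288000), of which 47.3% lay in the long non-coding gene Gm29185, had the lowest level of the group with 1.82, 1.49 and 2.28 RPKM.

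**Figure D1:**
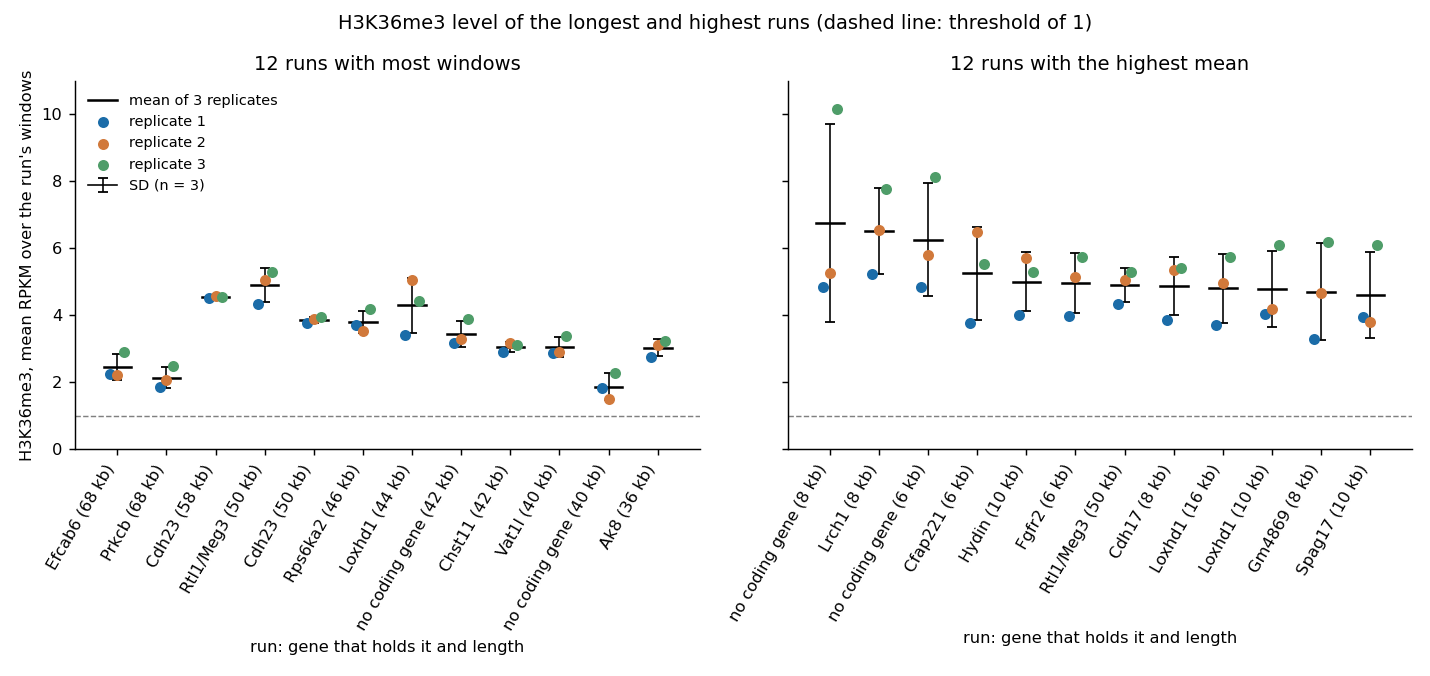
H3K36me3 level (mean RPKM over the windows of a run) in each replicate (points), with the mean (bar) and SD (whiskers, n = 3), for the 12 runs with most windows and the 12 runs with the highest mean. The Cdh23 runs have the replicates closest together, and the highest run, outside coding genes, has 10.2 RPKM in replicate 3 against 4.85 and 5.25 in the others.

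The highest runs were short and uneven between replicates. The highest of all, 4 windows on chr4:131604001-131612000, 156 kb from Ptpru, had 4.85, 5.25 and 10.2 RPKM, so replicate 3 stood apart. Replicate 3 was also the highest in the runs of 4 windows in Lrch1 (5.23, 6.54 and 7.78 RPKM) and of 3 windows on chr15:74006001-74012000 (4.84, 5.81 and 8.12 RPKM). The runs in Cfap221 and Hydin, both genes of motile cilia, were highest in replicate 2, with 3.76, 6.47 and 5.53 RPKM and with 4.02, 5.71 and 5.28 RPKM. Of the 12 highest runs, 10 had at most 10 kb. The first 3 rested on 316, 312 and 223 reads, against 1691 reads in the longest Cdh23 run. The lowest of the 12, in Spag17, a gene of the ciliary central apparatus, had 4.61 ± 1.28 RPKM. A run of 3 windows was placed in both Dmbt1, which encodes a secreted scavenger receptor, and Fgfr2, because the annotated Fgfr2 model runs over its neighbours (1463 windows) and its assignment is uncertain. All of the 12 highest runs had H3K36me3 alone in the windows on both sides.

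The level of the runs was compared with that of H3K36me3 without H3K27me3. To keep the choice of windows apart from their measurement, members were chosen again on 2 replicates and measured in the third, and this was done for each replicate. In these held-out values, windows of runs had 2.19, 2.08 and 2.61 RPKM and windows of runs with H3K36me3 alone had 2.14, 2.196 and 2.36 RPKM, in replicates 1, 2 and 3. The log2 ratio was 0.033 ± 0.11 (SD, n = 3) and was positive in 2 of 3 replicates (exact sign-flip test, two-sided, p = 0.75, adjusted p = 0.75). No difference was therefore resolved, and without replicate 3 the ratio was −0.023. The 2 sets were not matched for run length, which moved with the level, so the ratio does not compare runs of equal length. The smallest p that 3 replicates allow is 0.25, so no contrast of this kind can pass a threshold of 0.05. How far the pools shared mice is not given in the sources used here, and these tests measure only the spread between the 3 libraries.

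Levels within H3K36me3 domains are given as a description, because the rule bears on them in a held-out replicate too. The held-out levels were 2.46, 2.34 and 2.91 RPKM in the runs and 2.26, 2.22 and 2.56 RPKM in windows of the same domains with H3K36me3 alone. On the log2 scale the runs were higher by 0.13 ± 0.054 (SD over the 3 replicates). The runs had to hold at least 3 adjacent windows above the threshold, while single windows and domain edges were admitted among those with H3K36me3 alone, so the rule favours the runs. Inside the runs, the inner windows had 2.35, 2.23 and 2.83 RPKM and the windows at the edges had 1.99, 1.88 and 2.33 RPKM. This log2 ratio was 0.26 ± 0.020. Edge windows lie by definition beside a window that did not meet the rule, where the level was lower.

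Longer runs had higher levels, here given without a test since length follows from the same values. Runs of 3 windows had 2.09 ± 0.23 RPKM, runs of 5 to 9 windows 2.45 ± 0.30, runs of 10 to 19 windows 2.63 ± 0.31 and the 11 runs of 20 or more 3.40 ± 0.27 RPKM (SD, n = 3). In the same length classes, runs with H3K36me3 alone had 1.90 ± 0.15, 2.13 ± 0.15, 2.33 ± 0.14 and 2.47 ± 0.12 RPKM. The runs with both marks were higher in each class, which was not tested because the same values chose the members.

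The marks next to the runs were counted in the adjoining windows. Of the 3352 windows next to a run, 44.5% had H3K36me3 alone, 18.7% H3K27me3 alone (25.0% and 18.9% of all autosomal windows), 9.76% no mark and 0.955% were not valid. The order of the first 2 classes depended on the threshold, and at 2 RPKM they were 34.3% and 35.6%. All 3 marks were found in 10.6%. Windows with all 3 marks are 0.533% of the autosomal windows, but the 2 shares are not alike. Beside a run, a window with H3K36me3 and H3K27me3 can only be in this class. H3K4me3 with H3K27me3 was found in 7.55%, H3K4me3 with H3K36me3 in 5.04% and H3K4me3 alone in 2.83%. A window with both marks and no H3K4me3 cannot stand next to a run, because it would be part of it. H3K27me3 ended on both sides of 765 runs (45.6%), whereas H3K36me3 ended on both sides of 359 (21.4%). The H3K36me3 domain around a run had a median length of 18 kb and the H3K27me3 domain 12 kb. The H3K36me3 domain was the longer in 987 runs and the H3K27me3 domain in 587.

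Runs in different surroundings had different levels. The 432 runs with H3K36me3 alone on both sides had 2.80 ± 0.29 RPKM, whereas the 106 runs with H3K27me3 alone on both sides had 1.64 ± 0.22 RPKM (SD, n = 3). The 174 runs between H3K36me3 on one side and H3K27me3 on the other had an intermediate level of 2.17 ± 0.27 RPKM. In 702 runs a window with H3K4me3 lay on at least 1 side, and these had 2.13 ± 0.26 RPKM. The calls beside the runs come in part from the same H3K36me3 values, so these levels carry no test. In the 990 runs that lay wholly inside exactly 1 protein-coding gene, the sides hardly differed by strand. H3K36me3 alone adjoined the upstream side in 43.4% and the downstream side in 47.9%, and H3K27me3 alone did so in 18.3% and 18.6%. Transitions from H3K27me3 alone to H3K36me3 alone in the direction of transcription (46 runs) were as frequent as the opposite (46 runs).

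**Figure D2:**
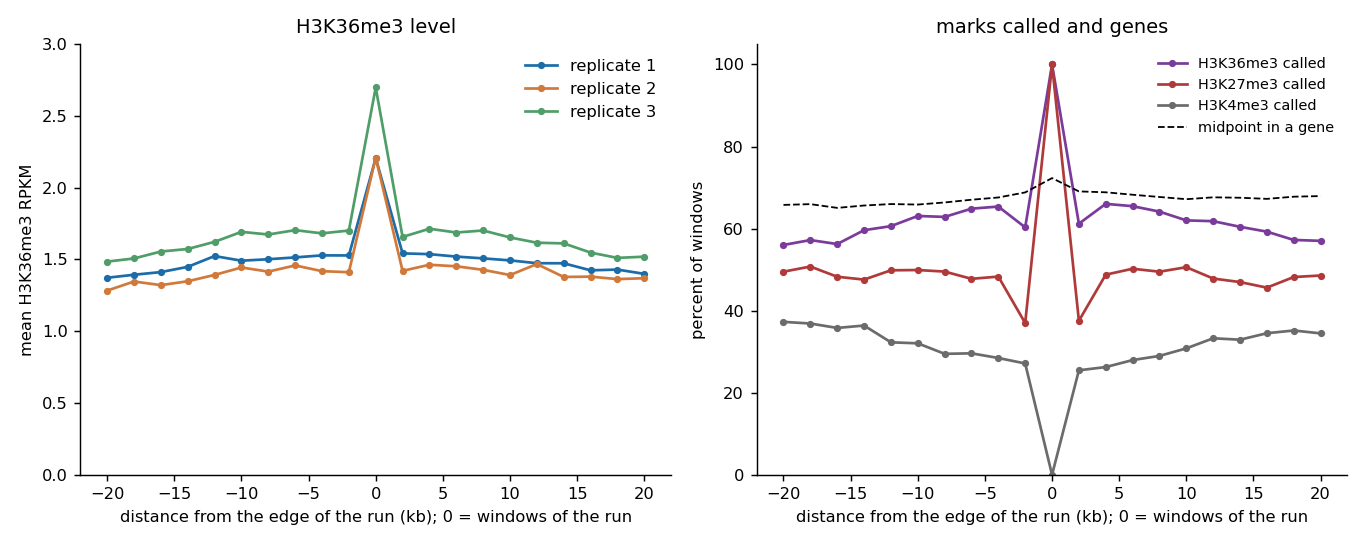
Mean H3K36me3 RPKM per replicate (left) and share of windows called for each mark or lying in a gene (right) in the runs (0) and in windows up to 20 kb on either side. Levels are 2.21, 2.21 and 2.70 RPKM in the runs and 1.53, 1.41 and 1.70 RPKM 2 kb before them in replicates 1, 2 and 3, and the values at 0 follow from the rule.

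Farther out, the H3K36me3 level fell slowly, from 1.55 ± 0.15 RPKM in the windows 2 kb before the runs to 1.38 ± 0.10 RPKM at 20 kb, and from 1.54 ± 0.12 to 1.43 ± 0.08 RPKM after them. All of these are above the mean of the autosomes. Windows of other runs were counted at these positions too, and 48.3% of the runs had another run within 20 kb. H3K27me3 was called in 49.5% of windows 20 kb before the runs and in 48.6% of those 20 kb after. At 2 kb the share was 37.0% and 37.5%, which reflects that windows with both marks are missing at this position. H3K4me3 rose from 27.1% at 2 kb to 37.3% at 20 kb before the runs.

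Runs lay mostly in genes, more often than H3K27me3 and less often than H3K36me3 on its own. The midpoint was in an annotated gene for 72.3% of the member windows, compared with 81.6% in runs with H3K36me3 alone, 42.1% in runs with H3K27me3 alone and 49.7% of all autosomal windows. In the shorter stretches with both marks, which the rule left out, this share was 55.0%. Introns made up 65.9% of the bases of the runs and exons 6.42%. In runs with H3K36me3 alone these were 72.3% and 9.29%, and in runs with H3K27me3 alone 39.4% and 2.70%. At least 50% of the run lay in 1 protein-coding gene for 1079 runs (64.4%). A gene of another type held at least 50% of a further 96 runs, and 418 runs (24.9%) touched no annotated gene.

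Of the 20807 protein-coding genes on autosomes, 552 (2.65%) held a run, that is at least 3 windows of the same run with their midpoints in the gene. Such genes were long. Their median length was 127 kb against 17.6 kb for all protein-coding genes. A run was found in 0.0961% of the genes under 10 kb, 1.80% of those between 20 and 50 kb, 9.44% of those between 100 and 200 kb and 29.8% of those of 500 kb or more. The share of their windows in runs varied far less, from 0.365% under 10 kb to 1.52% between 200 and 500 kb and 1.18% above. The number of windows in a gene thus moved with the count of genes that hold a run, and its part in the lists below was not tested. In 234 genes there were 2 or more runs, and 168 genes had at least 10 member windows.

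**Figure D3:**
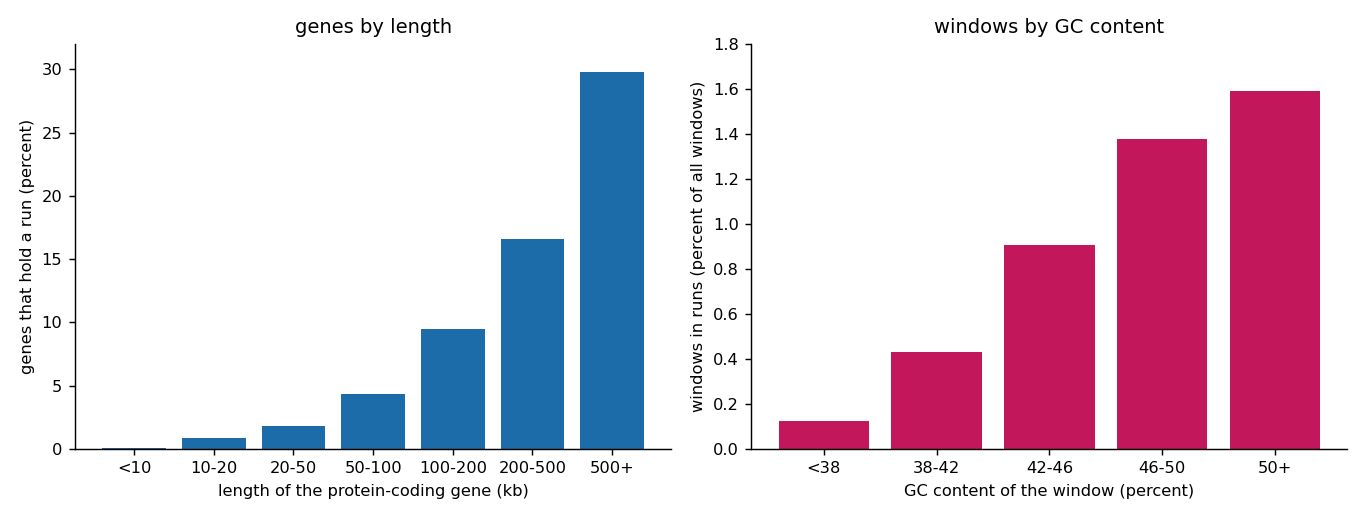
Share of protein-coding genes that hold a run by gene length (left) and share of autosomal windows that lie in runs by GC content of the window (right). The first rises from 0.0961% under 10 kb to 29.8% at 500 kb or more, and the second from 0.126% under 38% GC to 1.59% at 50% GC or more.

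Along the gene, the runs lay toward the end. In the 517 genes with a run and at least 10 windows, runs took 3.47% of the windows in part 1 of genes cut into 10 stretches of equal length, 7.12% in the fifth, 12.6% in the ninth and 12.4% in the last. H3K36me3, which is one of the marks that define the runs, was called in 31.0% of windows in the first part and 61.9% in the last. H3K27me3 stayed between 42.3% and 51.2% and H3K4me3 fell from 39.5% to 27.7%. The H3K36me3 level rose from 0.849 ± 0.024 to 1.58 ± 0.10 RPKM (SD, n = 3). Over all 9738 protein-coding genes of at least 10 windows, the share of windows in runs likewise went from 0.492% in the first part to 1.78% in the last.

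**Figure D4:**
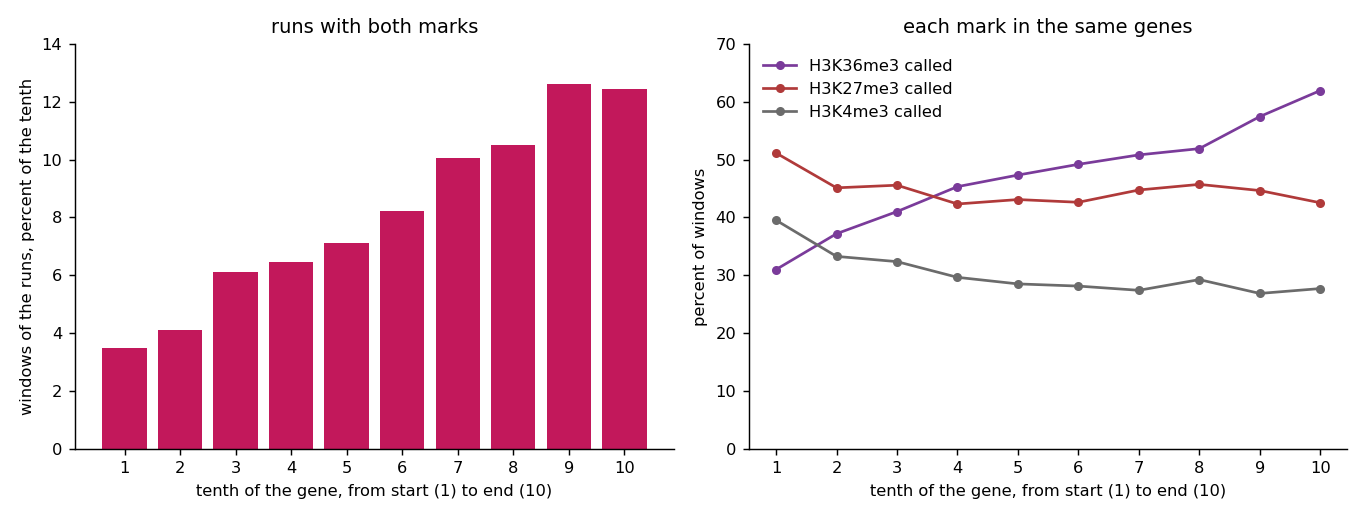
Share of windows in runs (left) and called for each mark (right) in 10 equal parts of 517 protein-coding genes that hold a run, from start to end. Runs rise from 3.47% to 12.4% of windows and H3K36me3 from 31.0% to 61.9%, while H3K27me3 is between 42.3% and 51.2%.

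In 242 genes a run stood beside at least 3 windows with H3K36me3 alone and 3 with H3K27me3 alone. The median level over these genes was 2.09 ± 0.22 RPKM in the runs, 1.99 ± 0.20 RPKM in windows with H3K36me3 alone and 0.427 ± 0.096 RPKM in windows with H3K27me3 alone (SD, n = 3). The windows of runs were above those with H3K36me3 alone in 143, 141 and 126 of these genes in replicates 1, 2 and 3. The threshold on H3K36me3 places the first 2 classes above 1 and the last below it, so this carries no test.

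The genes with most member windows showed different mixtures of marks. Cdh23 came first with 84 of 195 windows in 7 runs, at 3.97, 4.22 and 3.98 RPKM, and its 69 windows with H3K36me3 alone had 3.01 ± 0.06 RPKM. H3K36me3 was called in 178 of its windows and only 2 had H3K27me3 alone. Sox5, which encodes a transcription factor of cartilage and the nervous system, had 72 of 473 windows in 14 runs, at 1.64, 1.65 and 2.14 RPKM. In contrast to Cdh23, 353 of its windows were called for H3K27me3 and 111 had H3K27me3 alone. Prkcb was of the same kind, with 66 of 170 windows in 6 runs at 1.85, 2.10 and 2.205 RPKM and 146 windows called for H3K27me3.

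Msi2, which encodes an RNA-binding protein of stem cells, had 63 of 189 windows in 10 runs. H3K27me3 was called in 178 of its windows, and the replicates differed with 2.00, 1.42 and 2.54 RPKM. Cdh13, which encodes T-cadherin, had 62 of 517 windows in 13 runs at 2.32 ± 0.38 RPKM. Adgrv1, which encodes a very large adhesion receptor of hair cells, had 52 of 259 windows in runs at 2.07, 1.55 and 2.77 RPKM. Frmd4a, which encodes a scaffold protein of cell polarity, had 45 of 292 windows at 2.04 ± 0.36 RPKM, below its 17 windows with H3K36me3 alone at 2.55 ± 0.32 RPKM.

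In Hydin, Plxna4, Pde10a and Tns3 more windows were called for H3K36me3 than for H3K27me3. Hydin, which encodes a protein of the ciliary central apparatus, had 51 of 172 windows in 9 runs, at 3.36, 3.81 and 4.13 RPKM, above its 82 windows with H3K36me3 alone at 2.48 ± 0.16 RPKM. None of its windows had H3K27me3 alone. Plxna4, which encodes a semaphorin receptor, had 46 of 221 windows at 2.39 ± 0.33 RPKM against 2.46 ± 0.16 RPKM with H3K36me3 alone. Pde10a, which encodes a cyclic nucleotide phosphodiesterase, had 42 of 226 windows at 2.73 ± 0.49 RPKM. Tns3, which encodes a tensin of focal adhesions, had 40 of 116 windows at 2.77 ± 0.11 RPKM. Ppp1r9a, an imprinted gene for the actin-binding protein neurabin, had H3K36me3 in 77 and H3K27me3 in 84 of its windows. Its 39 of 130 windows in runs had 2.68 ± 0.48 RPKM, above its windows with H3K36me3 alone at 1.64 ± 0.23 RPKM.

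**Figure D5:**
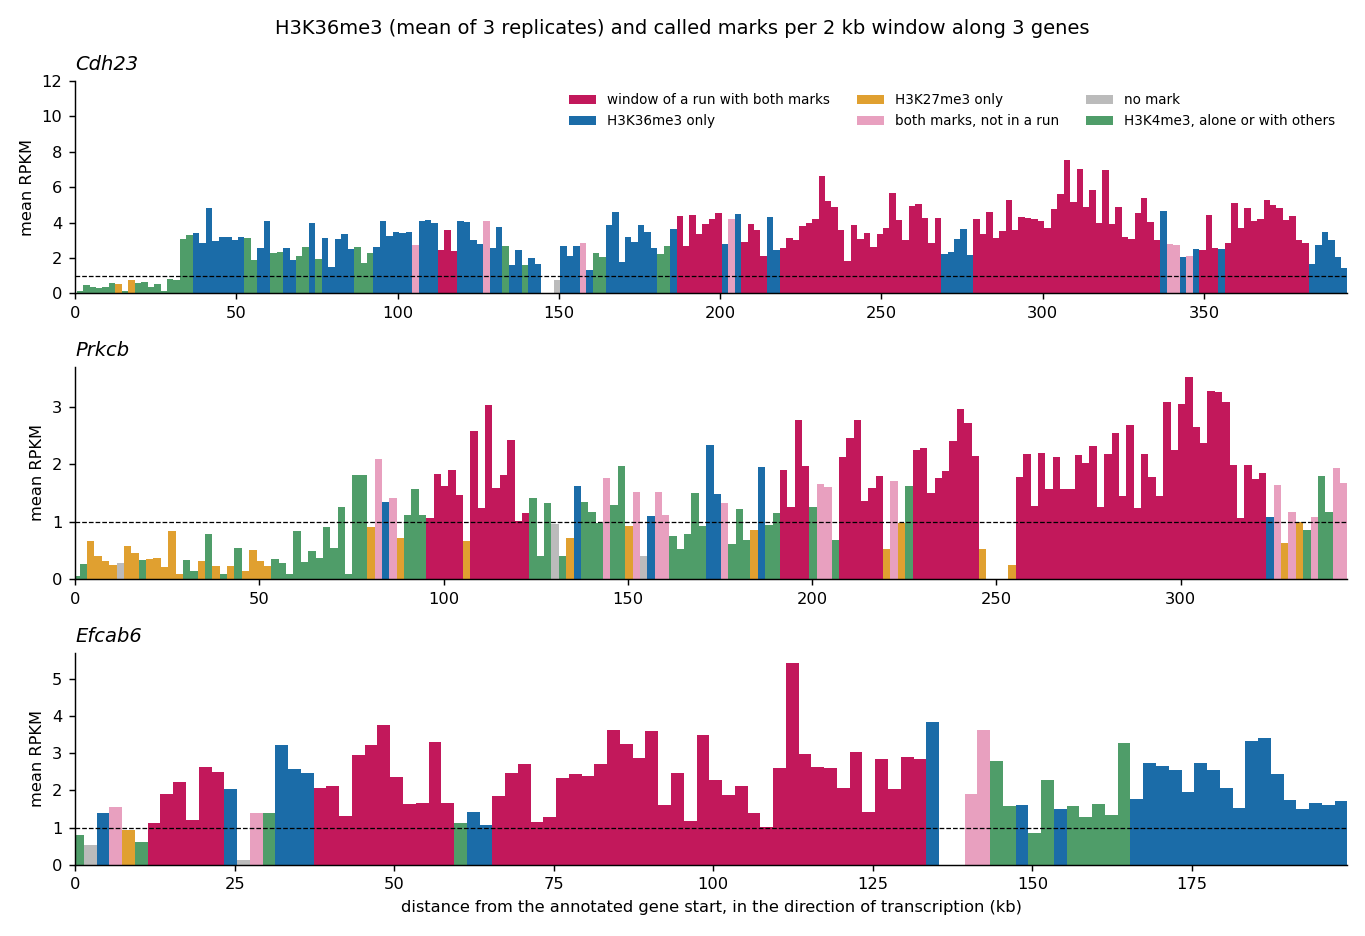
Mean H3K36me3 RPKM of the 3 replicates (bars, 2 kb windows) along Cdh23, Prkcb and Efcab6, in kb from the annotated start in the direction of transcription, coloured by the marks called; the dashed line is the threshold of 1. In Cdh23 the runs alternate with H3K36me3 alone over the later part of the gene, in Prkcb with windows that carry H3K4me3 or H3K27me3, and in Efcab6 they fill 51 of 98 windows.

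In 47 protein-coding genes of at least 5 windows, at least 50% of the windows were members. The largest were Efcab6 (51 of 98 windows, 2.37 ± 0.29 RPKM), Loxhd1 (41 of 80, 4.26 ± 0.67 RPKM), Greb1 (37 of 65) and Ak8 (37 of 57, 3.15 ± 0.31 RPKM). Greb1, an oestrogen-responsive gene, had 3.20, 3.17 and 3.11 RPKM over 7 runs, with the replicates nearly equal. Plch2, which encodes a phospholipase C, followed with 24 of 36 windows at 3.03 ± 0.41 RPKM. Xdh, which encodes xanthine dehydrogenase of purine breakdown, had 23 of 33 windows at 2.65 ± 0.32 RPKM. Shisal1 had 22 of 34 windows, with values of 2.84, 2.72 and 2.72 RPKM. Abca9, which encodes an ABC transporter, had 19 of 34 windows at 2.86 ± 0.49 RPKM. Acsl6, which encodes an acyl-CoA synthetase, had 18 of 30 at 2.05 ± 0.30 RPKM, and none of its windows had H3K36me3 alone. Slco2b1, which encodes an organic anion transporter, had 16 of 27 windows at 3.20 ± 0.51 RPKM.

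Smaller genes of this kind were mostly filled by a single run. Col11a2, which encodes a collagen chain of cartilage, had 12 of 13 windows in 1 run, at 3.36, 4.66 and 4.88 RPKM, so replicate 1 was lowest. Itgal, which encodes an integrin of white blood cells, had 10 of 20 windows at 2.13 ± 0.34 RPKM, and Ccdc88b had all 7 windows at 1.55 ± 0.37 RPKM. Named after their values were seen, Cd4, the co-receptor of helper T cells, had 10 of 12 windows at 2.87 ± 0.34 RPKM and Irf8, which encodes a transcription factor of blood cells, had 6 of 10 at 3.14 ± 1.04 RPKM. Among the 124 genes of other types that held a run, Zmiz1os1, annotated as antisense, had the most member windows, 41 of 102 at 2.97 ± 0.41 RPKM. The ChIP reads have no strand, so they cannot be assigned to an antisense gene rather than to the gene opposite.

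The members of gene families were read against the share of all protein-coding genes with a run, 2.65%, and beside the median length of each family. Of 96 cadherins and protocadherins, adhesion proteins, 30 held a run (31.2%, median length 96.5 kb). However, 21 of these are overlapping models of the clustered protocadherins that share a single run of 3 windows, so the remaining 9 are Cdh23, Cdh13, Cdh2, Cdh17, Cdh4, Cdh15, Fat2, Fat3 and Fat4. Cdh2, which encodes N-cadherin, had 32 of 111 windows in runs at 2.26 ± 0.44 RPKM, and Cdh17 had 13 of 28 at 4.00 ± 0.53 RPKM. Of 9 protein kinases C, 3 held a run (median length 129 kb). Besides Prkcb these were Prkca, with 13 of 202 windows at 2.84 ± 0.50 RPKM, and Prkce, with 4 of 245 at 1.65 ± 0.48 RPKM and H3K27me3 called in 243 of its windows. Of 25 adhesion G protein-coupled receptors, 5 held a run (20%, median length 71.2 kb): next to Adgrv1 these were Adgrl3 (39 windows, 2.13 ± 0.42 RPKM), Adgrl2 (35 windows, 2.63 ± 0.42 RPKM), Adgrb1 and Adgrg3.

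Genes of neurons, of the matrix and of cilia were counted in the same way. Runs were held by 17 of 166 ion channels (10.2%, median 42.5 kb), led by Trpm3 with 20 windows at 1.88 ± 0.22 RPKM and Cacna1e, a calcium channel, with 12 at 4.15 ± 0.73 RPKM. Of 83 neurotransmitter receptors, 7 held a run (8.43%, median 46.5 kb), led by the NMDA receptor subunit Grin2b with 20 of 230 windows at 2.36 ± 0.64 RPKM. Of 66 axon guidance genes, 5 did (7.58%, median 57.5 kb), and Dcc, the netrin receptor, came second to Plxna4 with 10 of 542 windows at 1.62 ± 0.17 RPKM. Of 113 genes of the extracellular matrix and integrins, 13 held a run (11.5%, median 87.2 kb), among them Col24a1, Col16a1 and Lama1 with 17, 15 and 15 windows. Of 15 axonemal dyneins, motor proteins of motile cilia with a median length of 239 kb, 4 held a run (26.7%), led by Dnah14 with 23 of 120 windows at 1.77 ± 0.25 RPKM. Of 21 receptor-type tyrosine phosphatases, 3 held a run (14.3%, median 151 kb), but only 0.338% of their windows lay in runs. Ptprd and Ptprn2 had 3 member windows each, of 1102 and 379. This share of windows was 1.06% for ion channels, 1.00% for neurotransmitter receptors, 1.21% for axon guidance genes, 1.68% for the matrix list and 2.35% for axonemal dyneins. By class of gene length it was between 0.365% and 1.52%.

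Shares nearer to the 2.65% of all protein-coding genes, whatever their length, were found in several families. They were 17 of 358 solute carriers (4.75%, median 29.0 kb), 5 of 76 myosins and kinesins (6.58%, median 60.02 kb), 2 of 63 Wnt, FGF, BMP and TGF-beta ligands (3.17%, median 18.1 kb) and 3 of 172 developmental transcription factors (1.74%). The last list had H3K27me3 in 52.9% of its windows but a median length of 6.03 kb. Its members with a run were Sox5, Tbx15 and Foxp2, with 72, 3 and 3 member windows. Of all windows of the list, 2.72% lay in runs. Of all genes under 10 kb only 0.0961% held a run, so 2.65% is no background for genes this short. Of 358 zinc finger proteins, 3 held a run (0.838%, median 17.4 kb), and most of their member windows were in Zfp423, a transcription factor, with 37 of 149 at 2.16 ± 0.33 RPKM. Imprinted genes held a run in 7 of 66 cases (10.6%, median 36.6 kb), namely Ppp1r9a, Meg3, Rasgrf1, Rtl1, Cdh15, Rian and Kcnk9. Of these, Rtl1, Meg3 and Rian overlap the same run of 25 windows, so they are not separate cases. Rasgrf1, which encodes an exchange factor for Ras, had 5 of 56 windows at 4.35 ± 1.28 RPKM.

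No run was held by 1413 olfactory and vomeronasal receptors (median 6.33 kb) or by 76 cytosolic ribosomal proteins (3.40 kb), but of all genes under 10 kb only 0.0961% held one. None was held by 15 oocyte genes (8.53 kb), 10 granulosa cell genes (20.8 kb), 38 enzymes of Polycomb, H3K36 and DNA methylation (43.2 kb) or 5 genes of noncanonical imprinting (116 kb). At a background of 2.65%, lists this small can hold no run without differing from other genes. For the ribosomal proteins, 87.9% of windows were called for H3K36me3 and 2.31% for H3K27me3, whereas for noncanonical imprinting these were 3.04% and 88.2%. The lists at either extreme thus carried nearly only 1 of the marks. Olfactory and vomeronasal receptors were low in both, with 7.07% and 17.3%.

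Runs rarely reached the start of a gene. Of 20001 protein-coding gene starts in valid windows, 41 (0.205%) lay in a run, against 36.4% in windows with H3K4me3 alone and 24.8% in windows with H3K4me3 and H3K27me3. By rule the runs hold no H3K4me3, which marks most active or poised starts. Only 39 runs (2.33%) held such a start, with 1 annotated start counted per gene and alternative promoters left out. The longest were the Cdh23 run, which holds the start of the predicted gene Gm17455, and the Rtl1 run. These were followed by Shisal1 (17 windows, 2.82 ± 0.19 RPKM), Gphb5, a subunit of a glycoprotein hormone (12 windows, 2.61 ± 0.91 RPKM), Ccdc88b (10 windows, 1.57 ± 0.10 RPKM) and Slco2b1 (9 windows, 2.05 ± 0.29 RPKM). Lsp1, which encodes an actin-binding protein of white blood cells, and Cdrt4 lay in runs of 8 windows. Cacng1, a calcium channel subunit of muscle, and Dennd1c lay in runs of 6.

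The promoters of Gphb5, Slco2b1 and Dennd1c are shown as examples of starts that lay in runs. They were read from the RefSeq promoter table (GRCm38.p6, minus strand, 300 bases written 5′ to 3′), with CpGs in capitals.
Gphb5, chr12:75416732-75417031: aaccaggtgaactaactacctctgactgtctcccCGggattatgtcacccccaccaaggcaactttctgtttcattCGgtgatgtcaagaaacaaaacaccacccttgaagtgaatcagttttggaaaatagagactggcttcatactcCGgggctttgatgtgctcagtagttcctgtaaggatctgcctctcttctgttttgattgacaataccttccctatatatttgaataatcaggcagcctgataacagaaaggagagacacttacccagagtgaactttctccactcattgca
Slco2b1, chr7:99711291-99711590: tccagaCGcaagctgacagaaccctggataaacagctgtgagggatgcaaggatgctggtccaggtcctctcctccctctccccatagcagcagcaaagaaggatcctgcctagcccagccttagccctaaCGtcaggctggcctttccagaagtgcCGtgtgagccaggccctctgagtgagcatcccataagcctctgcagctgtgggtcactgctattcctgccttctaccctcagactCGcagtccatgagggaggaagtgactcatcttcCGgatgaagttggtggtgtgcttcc
Dennd1c, chr17:57078449-57078748: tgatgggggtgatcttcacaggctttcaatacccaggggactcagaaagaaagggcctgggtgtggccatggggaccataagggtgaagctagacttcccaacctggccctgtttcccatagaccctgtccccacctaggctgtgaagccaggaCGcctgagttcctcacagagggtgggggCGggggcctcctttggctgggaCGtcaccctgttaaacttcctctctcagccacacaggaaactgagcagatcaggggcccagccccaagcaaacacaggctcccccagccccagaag
They hold 3, 5 and 3 CpGs. Of the 41 starts, 29 matched the promoter table by symbol. Over the 157 promoters of that table with their start in a run, genes of all types included, the median was 3 CpGs in 300 bases and 5.10% had 10 or more. The median over all 30251 promoters in valid windows was 8, with 45.1% at 10 or more. Promoters in windows with H3K27me3 alone had a median of 3 and those in windows with H3K36me3 alone 4, so CpG-poor starts were shared by all classes without H3K4me3. The windows of these 3 starts had 3.99 ± 1.83, 2.39 ± 0.37 and 3.43 ± 0.56 RPKM.

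The sequence of the runs was richer in GC than that of runs with either mark on its own. Member windows had a GC content of 45.5% ± 4.45 (SD over windows), compared with 42.8% in runs with H3K36me3 alone, 42.2% in runs with H3K27me3 alone and 42.01% over all autosomal windows. They had 10.4 CpGs per kb against 8.90, 7.74 and 8.48, and 18.4% of their bases were masked as repeats against 24.8%, 23.2% and 30.2%. Shorter stretches with both marks, left out by the rule, had 43.5% GC, 8.30 CpGs per kb and 21.1% masked bases. Their CpG content was thus below that of runs with H3K36me3 alone. Within genes only, the GC content was 45.8% in the runs and 43.0% in runs with H3K36me3 alone. Among autosomal windows under 38% GC, 0.126% lay in runs, and this share was 0.429% at 38 to 42%, 0.907% at 42 to 46%, 1.38% at 46 to 50% and 1.59% above. Each mark was itself called more often in GC-rich windows: H3K36me3 went from 22.1% to 41.1% and H3K27me3 from 19.9% to 45.6% between the lowest and the highest class. The level of the members also moved with GC, from 2.01 ± 0.28 to 2.60 ± 0.18 RPKM. The part that base composition has in the calls of either mark was not tested, and input values were not used here.

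Runs were found on every autosome. Chromosome 6 had the highest share of its windows in runs (1.03%, 149 runs) and chromosome 3 the lowest (0.507%, 87 runs). Most runs in number were on chromosome 2 (150). Of the windows with both marks, 42.6% lay in runs on chromosome 6 and 30.6% on chromosome 3.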

How the data were processed

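H3K36me3 was profiled in 3 libraries of GV oocytes. Reads had been trimmed, aligned to GRCm38 (Bowtie2 version 2.2.9, per the labels) and counted in 2 kb windows in SeqMonk by the authors, who dropped windows with extreme read numbers in input chromatin. The deposited RPKM values give a replicate per column and no pooled value. In each replicate 100% of the values were whole multiples of the value of 1 read, within 0.01. The reads in windows were between 2.13 and 2.14 times the total that the unit implies, so RPKM was read as a relative scale. Removal of duplicate reads is not stated, and intervals cover counting error only. The second deposited table holds category names (other), without values.

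Runs, adjoining windows, genes (GENCODE M21) and sequence were counted with Python 3.11.15, numpy 2.4.6 and pandas 2.3.3. Held-out contrasts used members chosen on 2 replicates and an exact sign-flip test over the 3, adjusted by the Benjamini-Hochberg method over 3 contrasts. The run finder, a log2 ratio and a copy of the sign-flip test were tested on simulated data. The held-out choice of members, the adjustment, the Wilson interval and the drawing down of reads were not. Named runs were the 12 with most windows and the 12 with the highest mean. Named genes held at least 50% of such a run, were the 15 with most member windows, had at least 50% of their windows in runs (the 10 largest), started in a run (up to 10) or led a list (up to 5). The members and gene lists were chosen with earlier results of these data known. A fit across windows was not made, since there is 1 group. One gene and one gene list that these rules name are not reported here.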

Additional observations from a re-analysis of the deposited data

How the results depend on the processing

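No paired analysis was possible because all samples belong to 1 group. Of 81 alternatives over 12 results, 56 kept a contrast's sign, a count within 1.5 times or a value within the spread between replicates. For the contrasts nothing but the sign was compared. With each replicate left out of the mean in turn, the runs numbered between 1610 and 1741 and the member windows between 7313 and 8151. Between 86.3% and 90.8% of the member windows, and between 90.9% and 93.8% of the 552 genes, were found again. The held-out log2 ratio of runs to runs with H3K36me3 alone ranged from −0.023 (without replicate 3, a change of sign) to 0.089 with a replicate left out. It was 0.22 at a threshold of 2 and 0.14 with at least 5 windows per run. The other contrasts stayed positive under every alternative, within the same domain from 0.093 to 0.23 and from edge to inner windows from 0.21 to 0.31. The rule favours this direction in both, and these alternatives are among the 56 that were kept. With medians over windows the ratio within the same domain was 0.093 and was no longer positive in each replicate.

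The counts follow the rule. There were 1086, 645 and 829 runs, with 4953, 2880 and 3592 windows, at a threshold of 1.5, of 2 and with every replicate above 1. With at least 2, 4 and 5 windows per run there were 3780, 939 and 587 runs, and 12103 and 4276 windows with at least 2 and 5. At a threshold of 2, 264 protein-coding genes held a run. The share of windows in genes was 66.3% for protein-coding genes alone, 76.8% at a threshold of 2 and 76.2% with at least 5 windows. H3K36me3 alone beside the runs was 31.1% by the majority of 5 windows and 34.3% at a threshold of 2, and H3K27me3 alone was then 35.6%, since windows between both thresholds lose their H3K36me3 call. Runs with every window above 1 in each replicate were 17.7% with reads drawn down to replicate 2 (10.8% of runs of the same lengths with H3K36me3 alone) and 83.8% with at least 2 of 3 replicates (81.4%). GC content was 45.8% and CpG 10.97 per kb in genes only, and 46.3% and 11.1 per kb at a threshold of 2. Replicates 2 and 3, at 5 and 7 reads per window, limit statements on single windows.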

Other observations

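On the X chromosome, which lies outside the rule, the same criteria gave 92 runs with 400 windows, 0.604% of its 66273 valid windows. The level was 1.89, 1.96 and 2.31 RPKM in replicates 1, 2 and 3 (2.05 ± 0.23, SD, n = 3), 48.2% of the windows lay in genes and 57.8% were above 1 in each replicate. The longest had 17 windows (chrX:166858001-166892000) and overlapped the long non-coding gene Gm15230 at one end.

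Further starts in runs were named after their values were seen. They included those of Vsir (7 of 13 windows in runs) and Tigit (1 of 8), inhibitory receptors of T cells. Vsir lies within Cdh23, and the ChIP reads have no strand. The values at the Vsir start therefore cannot be assigned to Vsir rather than to Cdh23. Il2rb (2 of 8), a chain of the interleukin-2 receptor, and Cysltr2 (5 of 12), a leukotriene receptor, were others. Camp (1 of 1) and Ngp (2 of 2), genes of neutrophil granules, were named as well. The runs at these starts had, in this order, 3.15 ± 0.16, 2.04 ± 0.50, 1.91 ± 0.27, 3.46 ± 0.42, 2.53 ± 0.26 and 1.85 ± 0.51 RPKM (SD, n = 3). The single windows that held the starts were lower for Vsir (2.439 RPKM), Tigit (1.613), Cysltr2 (1.923), Camp (1.394) and Ngp (1.397). In replicate 2 the start windows of Camp and Ngp had 0.793 and 0.396 RPKM, where 1 read is worth 0.396. Igsf9, a cell adhesion gene, had 6 of 8 windows in runs at 3.76 ± 1.00 RPKM. The 41 starts in runs also include genes of other kinds, such as Sftpb, Fabp6, Mgam, Mchr1 and Cox8b. No list of genes like those named here was compared with other genes.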
